A study of Mus musculus with 23 samples.

Results

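The genes described here encode core factors of pre-mRNA splicing in the mouse hippocampus. They were chosen by symbol, as the SR proteins (Srsf), the SF3 subunits (Sf3a and Sf3b), U2af1 and U2af2, the hnRNP proteins (Hnrnp), the snRNP polypeptides (Snrp) and the pre-mRNA processing factors (Prpf). A symbol also needed a mean of at least 10 counts over the 17 dorsal hippocampus libraries. The rule kept 67 of the 24985 symbols, and each symbol that matched a family name also passed the count minimum. The lowest mean counts were 36.6 for Snrpn, 72.7 for Hnrnpa1 and 74.9 for Snrpg. All 67 also passed the filter on low counts in both experiments. By role they comprise 11 SR proteins, 9 SF3 subunits, 2 U2AF subunits, 20 hnRNP proteins, 8 Sm core proteins, 4 proteins specific to the U1 or U2 snRNP, and 13 PRPF proteins.

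Splicing joins exons in steps that these proteins share out. The U1 snRNP pairs with the start of an intron, U2AF binds the end of the intron and the U2 snRNP, held by its SF3 subunits, pairs with the branch point, after which the tri-snRNP joins and the PRPF proteins help to activate the complex. Sm proteins form a ring around the small nuclear RNAs of the U1 and U2 snRNPs. SR proteins bind exonic sequences and mostly favour use of an exon, while hnRNP proteins coat the transcript and often favour its omission. Brain is known for unusually frequent alternative splicing, and activity-dependent splicing of synaptic genes is well described there.

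RNA sequencing counts came from C57BL6/J mice in which exons 3 to 7 of Acss2, the gene of a nuclear and cytosolic acetyl-CoA synthetase, were removed at the 1-cell stage, a constitutive loss that reaches every cell type. In the first experiment, whole hippocampi dissected freehand from home cage mice gave 2 wild-type (WT), 2 heterozygous (Het) and 2 homozygous deleted (KO) libraries. In the second, sections of dorsal hippocampus cut with a brain matrix gave 5 libraries of WT and 5 of KO mice from the home cage, and 3 of WT and 4 of KO mice that had been fear conditioned. Conditioning paired a context with 1 shock, and brains were taken 30 min later; these groups are called WT fear and KO fear, and those taken directly from the home cage WT home and KO home. Nothing in the labels says that the replicates of a group are separate animals, so each p-value measures the spread between these libraries only.

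Libraries held 18814460 to 27293661 counts in whole hippocampus and 5362773 to 23412644 in dorsal hippocampus. The batches given in the labels were unevenly filled. All whole libraries belong to B0; B1 holds 2 WT home, all 3 WT fear and 2 KO fear libraries; B2 holds 3 WT home and 3 KO home libraries; B3 holds 2 KO home and 2 KO fear libraries. B1 was the shallowest, with 5362773 to 9109104 counts per library. Acss2 was measured at 60.3 to 60.9 CPM (counts relative to library size, scaled with TMM, edgeR's trimmed mean of M values) in whole WT, 31.2 to 34.3 in Het and 6.73 to 7.02 in KO. In dorsal libraries it lay at 56.2 to 71.3 CPM in WT and 3.87 to 6.04 CPM in KO. Xist, the RNA made from an inactive X chromosome, was at 663 to 677 CPM in whole WT, 597 to 644 in Het and 0.137 to 0.145 in KO, so sex and the KO genotype cannot be told apart in whole hippocampus. Each dorsal library held at most 3 Xist counts. As a check of the conditioning, 10 of 13 rapid activity-induced genes such as Fos and Arc were called higher in WT fear than in WT home libraries. Of all genes, 1.63% were called in that comparison. In KO fear against KO home 0 of the 13 were called, as were 0% of all genes. All 13 were above 0, with a median log2 difference of 0.42 against 1.51 in WT. At an unadjusted p below 0.05 by edgeR, 6 of the 13 were higher in KO fear, where 4.82% of all genes reached that p. Between the fear groups 4 were called lower in KO (22.3% of all genes were called). In the genotype by fear interaction 3 were called lower (0.479% of all genes were called).

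A coding stretch of Srsf5 is shown because this gene came closest to a call in WT fear against WT home and because it displays what defines the SR family. Of the 40 codons printed (codons 183 to 222 of 270, 120 bases, mm10, chr12:80949600-80949834, plus strand, across a splice junction), 34 lie in arginine-serine or serine-arginine pairs, which are in capitals. Such pairs form the RS domain that gives the family its name. The sequence runs 5′ to 3′ in the sense of the mRNA.
Srsf5: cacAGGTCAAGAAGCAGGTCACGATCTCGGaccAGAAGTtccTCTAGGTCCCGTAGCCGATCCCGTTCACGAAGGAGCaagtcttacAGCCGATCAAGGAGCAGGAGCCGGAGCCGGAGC

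Counted over whole coding sequences, proline made up 26.2% of the codons of Sf3a2, a subunit that ties SF3a to the U2 snRNP and ends in a proline-rich tail, and 22.6% of those of Sf3b4, against 3.19% to 14.5% in the other 7 SF3 subunits. Among the SR genes, codons in arginine-serine pairs made up from 6.76% in Srsf9 to 31.1% in Srsf7, with 22.3% in Srsf5.

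Levels within the families were compared per kilobase of transcript, as CPM divided by the median length of a gene's coding transcripts in GENCODE M21. Hnrnpa2b1, an RNA-packaging protein with roles in splicing and RNA transport, was the most abundant member at 290.1 CPM per kb in whole WT and 297 CPM per kb in dorsal WT home libraries. Hnrnpa1, an often-studied repressor of exon inclusion, was the lowest hnRNP gene by its mean over dorsal libraries, at 7.95 CPM per kb in whole WT and 2.74 in dorsal WT home. In whole WT, Hnrnpf was lower. Hnrnpa1 has many near-identical processed copies in the genome, so its counts are uncertain.

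Srsf5 was the highest SR gene by its mean over dorsal libraries, at 127 CPM per kb in whole WT and 104 in dorsal WT home, and Srsf12 the lowest, at 9.83 and 7.75. Among the SF3 subunits, Sf3b2 led with 94.0 and 93.0 CPM per kb, and Sf3b4, which contacts RNA beside the branch point, was lowest by the same dorsal mean with 8.17 and 6.58. U2af2, the large subunit that reads the polypyrimidine tract, was at 42.6 and 38.6 CPM per kb, and U2af1, the small subunit that reads the terminal AG of the intron, at 11.3 and 8.91. Of the PRPF genes, Prpf19, a ubiquitin ligase of the spliceosome, was highest at 40.4 and 38.6 CPM per kb and Prpf4, a tri-snRNP protein, lowest at 4.86 and 4.09. Snrpa, the U1 protein A, was at 28.9 in both groups and Snrpc, the U1 protein C, at 7.38 and 8.02.

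The 2 SmB paralogues of the list stood at opposite ends of the Sm family. Snrpb, which encodes SmB and its splice form SmB', was the highest Sm gene by its mean over all dorsal libraries, with 55.9 CPM per kb in whole WT and 61.3 in dorsal WT home. In dorsal WT home Snrpd1 was higher at 63.3, and the means over all dorsal libraries were 65.6 for Snrpb and 65.1 for Snrpd1. Snrpn, the imprinted gene that encodes the neuronal counterpart SmN, was the least abundant of the 67, at 1.62 and 1.08 CPM per kb. These Snrpn counts are uncertain, because the gene shares exon bases with Snurf on the same strand and Snurf was listed at 0 counts in every library. Snrpn itself held 70 to 86 counts per whole library and 13 to 77 per dorsal library.

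**Figure D1:**
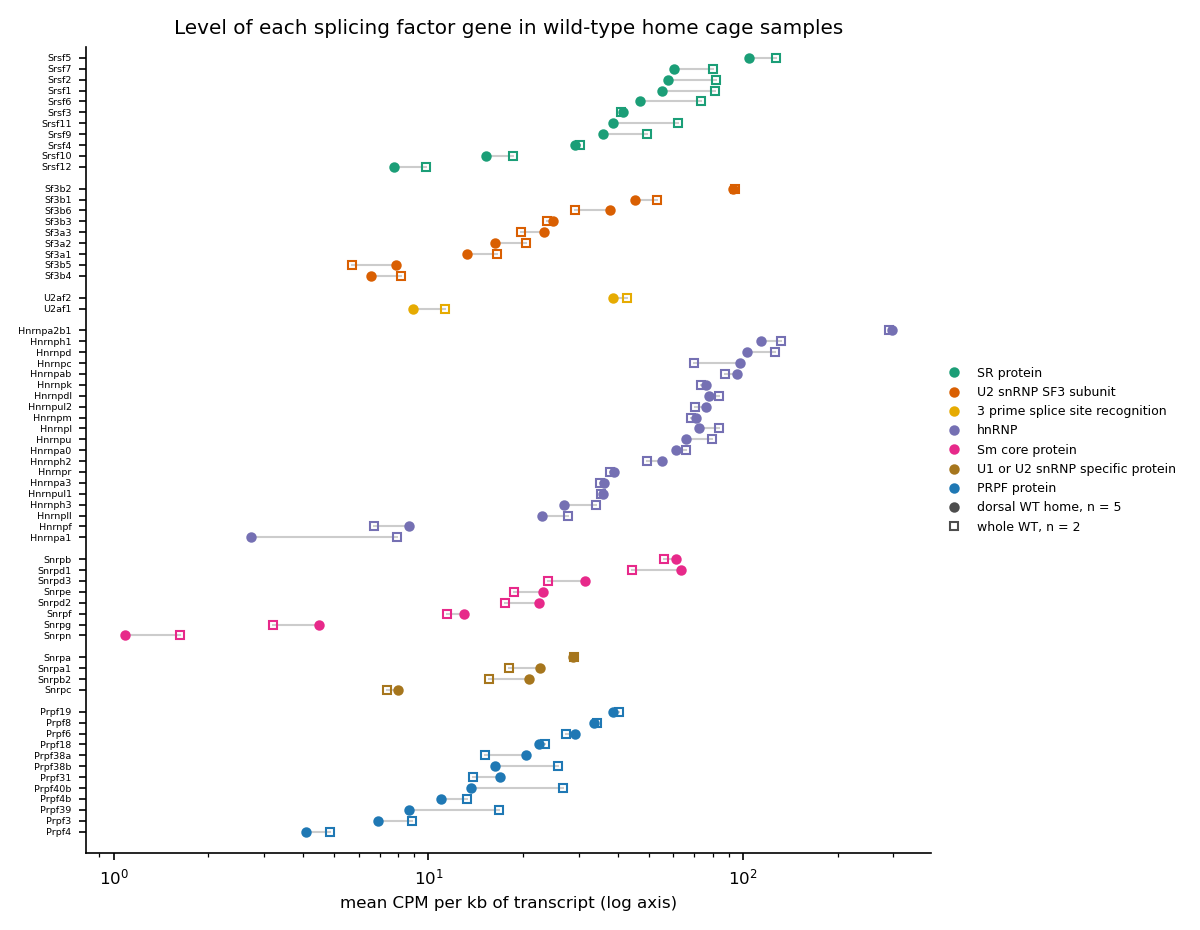
Level of 66 of the 67 genes in CPM per kilobase of transcript (log axis), grouped by role, with filled circles for the mean of 5 dorsal WT home and open squares for that of 2 whole WT libraries. Hnrnpa2b1 is the highest point at 290.1 and 297 and Snrpn the lowest at 1.62 and 1.08.

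The within-group standard deviation of log2 level had a median of 0.0557 over the members in whole hippocampus, against 0.0970 over all genes tested, and of 0.184 against 0.224 in dorsal hippocampus. These medians are not matched on level. Hnrnpa1 (0.44), Prpf39 (0.42) and Snrpe (0.37) varied most in the dorsal libraries, and Hnrnpl (0.086) least.

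Some of the dorsal variation went with batch inside a single group. Among the 5 WT home libraries, both B1 libraries lay above all 3 B2 libraries for 24 of the 67 genes and below them for 5, where 19.6% and 18.9% of all genes tested did so. Of the SR genes, 8 of 11 lay above and 0 below, and their median B1 minus B2 difference was 0.40 on the log2 scale, against 0.09 over all members and 0.01 over all genes. Srsf5, for example, was at 191 and 182 CPM in the B1 libraries and at 122, 142 and 145 CPM in the B2 libraries. Prpf39, a U1-associated protein, showed the largest difference (0.95), followed by Hnrnpa1 (0.77) and Srsf11 (0.66); these last genes were chosen after their values were seen. The members' share of all counts was 0.723% to 0.781% in B1, 0.622% to 0.693% in B2 and 0.674% to 0.694% in B3. Every comparison of dorsal groups therefore carried a batch term in the edgeR fit.

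In whole hippocampus no splicing factor gene passed the test in any genotype comparison, with Benjamini-Hochberg adjusted p-values over all genes from edgeR's quasi-likelihood test and a threshold of 0.05. DESeq2 and limma-voom also called 0 members in these comparisons. Of the 15453 genes tested, 0.0388% were called in KO against WT, 0% in Het against WT and 0.0841% in KO against Het. At an unadjusted p below 0.05, 12 members were higher and 3 lower in KO than in WT, which is 22.4% of the members where 6.09% of all genes reached that p. The members' median log2 difference was 0.06 against 0.00 over all genes, and 52 of 67 members were above 0, as were 7956 of all 15453 genes. For Het against WT the counts at that p were 5 higher and 2 lower (13.9% of all genes), with a median of 0.03, and for KO against Het 6 higher and 1 lower (13.2% of all genes), with a median of 0.04. Of 15 oligodendrocyte markers, 13 were higher at that p in KO than in WT (median 0.26) and 9 in Het (median 0.26), none of them called. Their summed level was 6899.8 to 7113 CPM in WT, 7951 to 8449.6 CPM in Het and 8358 to 8777 CPM in KO. Of 11 thalamus and neocortex markers, 8 were higher at that p in Het than in WT (median 0.61) and 1 in KO (median 0.13). The part of these in the members' differences was not tested.

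Srsf5 had the smallest p of the members that were higher in KO than in WT. It was measured at 191 and 189 CPM in WT, 216 and 225 in Het and 215 and 223 in KO, so both Het and both KO libraries lay above both WT libraries. The log2 difference was 0.20 ± 0.051 (SE) in KO and 0.21 ± 0.051 in Het, with adjusted p-values by edgeR of 0.774 and 0.254. Srsf1, the prototype SR protein, showed the same order, with 236 and 245 CPM in WT, 272 and 258 in Het and 282 and 272 in KO (KO minus WT 0.20 ± 0.056). Hnrnph3 differed by 0.26 ± 0.073 between KO and WT.

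On the other side, Sf3a2 was at 31.5 and 29.5 CPM in WT, 27.7 and 28.6 in Het and 26.9 and 26.9 in KO, a KO minus WT difference of -0.18 ± 0.068. Snrpa (-0.18 ± 0.074) and Sf3b5 (-0.27 ± 0.11) were the other members with the smallest p in that direction, each with an adjusted p of 0.802. By role, 9 of 11 SR genes, 17 of 20 hnRNP genes and 11 of 13 PRPF genes had a KO minus WT difference above 0, with medians of 0.09, 0.09 and 0.06, whereas the SF3 median was 0.02. Across the 67 genes, which share their libraries, the KO minus WT difference had a Spearman correlation of -0.439 with transcript GC content, and across 14431 other protein-coding genes of -0.351. The part of base composition in these differences was not tested.

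In Het against WT, Hnrnpdl (0.22 ± 0.054, adjusted p = 0.254 by edgeR) and Hnrnph3 (0.19) followed Srsf5 upward, and Snrpa (-0.19), Prpf8 (-0.13) and Prpf19 (-0.16) led downward. Without Het 1, Srsf5 (0.24, adjusted p = 0.0349 by edgeR) and Prpf19 (-0.26, adjusted p = 0.0302 by edgeR) passed in Het against WT, with 9% of all genes, and 1 member passed in KO against Het, with 7.66% of all genes. In KO against Het, Prpf4b, Prpf6 and Hnrnpm each differed by 0.14, and Hnrnpdl (-0.16), Hnrnpa0 (-0.17) and Prpf40b (-0.09) were lower, all with adjusted p-values of 0.320 or more. X-linked Hnrnph2 was at 118 and 115 CPM in WT, 123 and 117 in Het and 121 and 132 in KO. Both KO libraries lay above both WT libraries, while Het overlapped each of the other genotypes.

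Fear conditioning of WT mice was followed by no call among the members by edgeR. Of the 14808 genes tested in dorsal hippocampus, 1.63% were called between WT fear and WT home. At an unadjusted p below 0.05 there were 4 higher and 3 lower members, where 20.8% of all genes reached that p. The members' median difference was -0.01, against -0.02 over all genes.

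Srsf5 came closest. WT fear libraries held 141, 128 and 133 CPM, below both WT home libraries of the same batch at 191 and 182 CPM but within the range of the B2 home libraries at 122 to 145 CPM. The batch-adjusted difference was -0.42 ± 0.11 (adjusted p = 0.0528 by edgeR), and within B1 alone it was -0.46 (adjusted p = 0.151 by edgeR). The gene passed by DESeq2 (-0.40, adjusted p = 0.0104), limma-voom called 0 members, and it passed by edgeR when WT home 3, WT fear 1, KO home 1 or KO fear 1 was left out (adjusted p 0.0330 to 0.0496). Of all genes, 6.34% were called by DESeq2. Those edgeR fits called 190 of 14760, 793 of 15131, 655 of 14743 and 201 of 14922 genes, in that order. Without WT home 1, 2 other members passed, both higher, with 5.56% of all genes. Prpf31 (-0.25 ± 0.12) and U2af1 (-0.42 ± 0.20) were the next lower members. In the other direction stood Snrpn (0.67 ± 0.26, adjusted p = 0.158 by edgeR), Sf3a2 (0.38 ± 0.18) and Hnrnpa0 (0.24 ± 0.11). For Snrpn, WT fear libraries held 2.45, 3.84 and 2.78 CPM and WT home libraries 1.80, 2.51, 2.10, 2.25 and 2.20 CPM, with 1 fear library inside the home range. Of the 8 Sm genes, 1 was above 0 in this comparison, and their median was -0.20. Over the 67 genes, which share their libraries, the difference had a Spearman correlation of 0.418 with transcript length, and over 13913 other protein-coding genes of 0.367. Of the oligodendrocyte markers, 10 of 15 were called lower in WT fear than in WT home (median -1.22), and of the ependyma markers 5 of 10 (median -3.55). The part of length and of these cell types in the members' values was not tested.

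In KO mice, fear against home cage gave no call either, by edgeR, DESeq2 or limma-voom, and 0% of all genes were called by edgeR. At an unadjusted p below 0.05, 1 member was higher and 2 were lower, where 4.82% of all genes reached that p. Sf3a2 had the smallest p, with a difference of -0.54 ± 0.16 (adjusted p = 0.968 by edgeR). KO home libraries held 20.7, 21.1, 28.2, 26.9 and 30.7 CPM, while the B1 libraries of KO fear held 12.7 and 9.63 CPM and its B3 libraries 21.6 and 25.1 CPM. No KO home library comes from B1, and within B3 the difference was -0.31. Over the 67 genes the difference had a Spearman correlation of -0.619 with transcript GC, and over 13913 other genes of -0.383. Hnrnpl (-0.21 ± 0.088) and Snrpa (-0.16 ± 0.087) were also lower, and Srsf7 (0.25 ± 0.13) and Srsf3 (0.26 ± 0.15) higher.

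KO home against WT home likewise gave no call among the members by edgeR, DESeq2 or limma-voom, and 0.00675% of all genes were called by edgeR. At an unadjusted p below 0.05, 4 members were higher and 0 lower, where 11.3% of all genes reached that p. Snrpe (0.57 ± 0.22), Sf3b5 (0.47 ± 0.21) and Prpf6 (0.19 ± 0.085) had the smallest p, each with an adjusted p of 0.440. Prpf4b (-0.16 ± 0.086), Sf3a1 (-0.19 ± 0.10) and Sf3b1 (-0.14 ± 0.080) led in the other direction. Within B2, the batch that both home groups share, Snrpe differed by 0.45 and Sf3b5 by 0.33. Of the Sm genes, 7 of 8 were above 0 with a median of 0.25. Of 11 endothelium and mural cell markers, 6 were lower in KO home at an unadjusted p below 0.05 (median -0.55), with sums of 130.5 to 187 CPM in WT home and 114 to 228 CPM in KO home, and 7 of 13 rapid activity-induced genes were higher (median 0.49); none was called, and their part in the members' values was not tested. The Spearman correlation of the difference with transcript length was -0.538 over the 67 genes and -0.555 over 13913 other genes. Snrpb was at 60.2, 61.5, 74.6, 78.8 and 80.6 CPM in WT home and at 96.2, 91.1, 74.7, 83.6 and 90.8 CPM in KO home, so 1 KO library fell inside the WT range (0.22 ± 0.11, adjusted p = 0.440 by edgeR).

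KO fear against WT fear was the comparison with calls. By edgeR, 9 members rose and 7 fell in KO fear relative to WT fear, 16 of 67 or 23.9%, where 22.3% of all genes were called, 10.2% higher and 12.1% lower. The members' share of calls is near that of all genes. Their median difference was 0.05, against 0.01 over all genes. At an unadjusted p below 0.05 there were 16 higher and 12 lower members (41.8%, beside 39% of all genes). The KO fear and WT fear libraries did not overlap for 12 members, 6 of them called, and for 21.4% of all genes. In bulk tissue, fewer cells of a type and less RNA per cell cannot be told apart.

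By role, the SF3 subunits held 3 higher and 3 lower calls among 9 genes, the Sm core 2 higher calls among 8, the U1 or U2 proteins 1 higher among 4, the hnRNP proteins 1 higher and 3 lower among 20, the PRPF proteins 1 higher and 1 lower among 13 and the SR proteins 1 higher among 11. Neither U2AF subunit was called. Median differences ran from 0.46 for the Sm core and 0.42 for the U1 or U2 proteins to -0.16 for the hnRNP proteins.

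**Figure D2:**
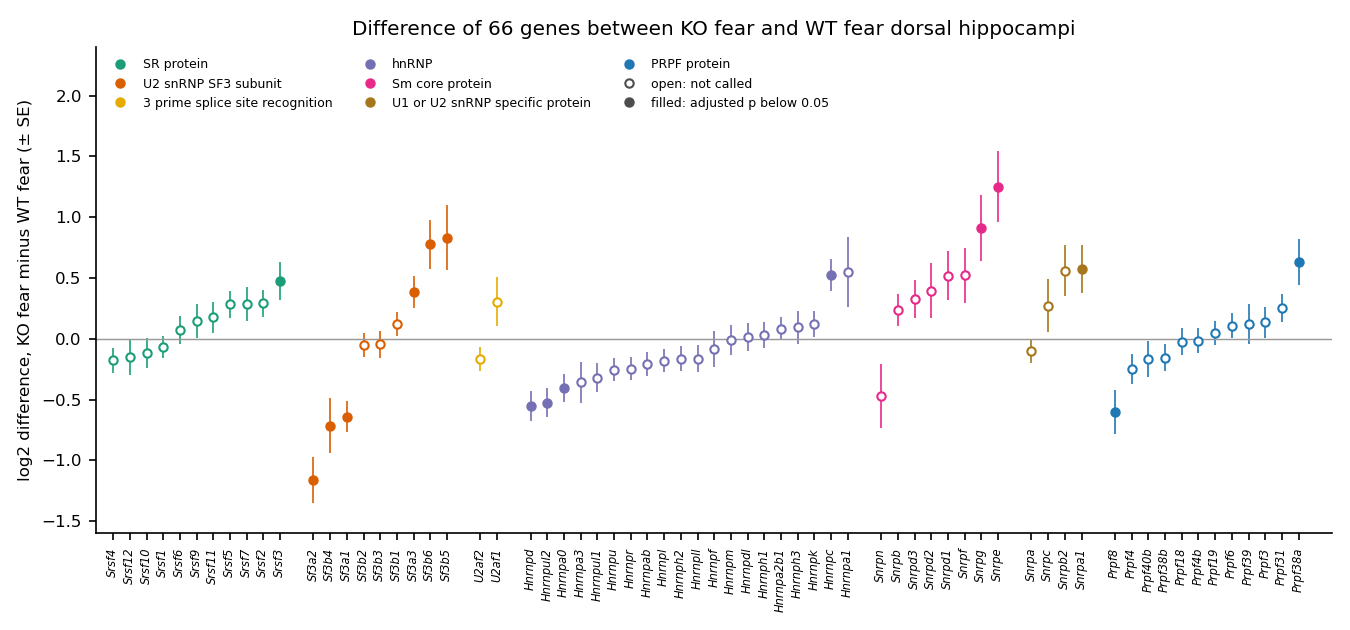
Log2 difference KO fear minus WT fear of 66 of the 67 genes by role, with bars of 1 SE and filled symbols for genes called by edgeR. Calls in both directions appear among the SF3 subunits, while the Sm genes lie mostly above 0, with a median of 0.46.

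Among the SF3 subunits, Sf3a2 fell most. It was measured at 23.5, 29.7 and 31.1 CPM in WT fear, against 12.7 and 9.63 CPM in the B1 and 21.6 and 25.1 CPM in the B3 libraries of KO fear. Both B1 libraries of KO fear lay below every other dorsal library, and 1 of its B3 libraries lay inside the WT fear range. The log2 difference was -1.16 ± 0.19, or 2.24-fold lower (adjusted p = 0.0155 by edgeR). Sf3a2 overlaps Plekhj1 on the opposite strand over 16.1% of its exon bases, and the library kit does not mark strand, so reads of the pair cannot be separated there.

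Sf3a1, whose product binds both SF3a partners, was at 66.3, 82.2 and 76.5 CPM in WT fear and at 44.3, 48.9, 57.2 and 62.3 CPM in KO fear, with no overlap. It fell by 0.64 ± 0.13, or 1.56-fold (adjusted p = 0.0155 by edgeR). WT home libraries held 60.2 to 69.6 CPM and KO home libraries 50.9 to 69.3 CPM, so 2 of the 3 WT fear libraries lay above every home cage library. Sf3b4 was at 12.6, 14.7 and 14.5 CPM in WT fear and at 7.52, 8.31, 12.9 and 15.7 CPM in KO fear, and the groups overlapped. It fell by 0.72 ± 0.23 (adjusted p = 0.0349 by edgeR).

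Sf3b6, which touches the branch-point adenosine, moved the other way. Its WT fear values were 38.8, 28.9 and 34.2 CPM and its KO fear values 58.5, 58.8, 65.8 and 46.9 CPM, with no overlap and a rise of 0.78 ± 0.20, or 1.72-fold (adjusted p = 0.0193 by edgeR). Home cage levels lay at 39.3 to 50.9 CPM in WT and 37.0 to 65.8 CPM in KO, so every WT home library was above every WT fear library. Sf3b5, a small subunit of SF3b, was at 24.3, 22.8 and 24.0 CPM in WT fear and 27.5, 63.2, 45.9 and 31.0 CPM in KO fear, without overlap but with a wide spread in KO fear (rise of 0.83 ± 0.27, adjusted p = 0.0378 by edgeR). Sf3a3, the last of the 16 by adjusted p and named after its values were seen, rose by 0.38 ± 0.13 (adjusted p = 0.0488 by edgeR). The 3 SF3 genes that fell, Sf3a2, Sf3b4 and Sf3a1, were the 3 with the largest share of proline codons given above. Transcript GC was 59.0% for Sf3a2, 56.2% for Sf3b4 and 50% for Sf3a1, against 44.6% to 49.8% for the 3 that rose, so Sf3a1 lay next to Sf3a3. Of the SF3 genes not called, Sf3b2 was at 54.3% GC, above Sf3a1, Sf3b3 at 49.0% and Sf3b1 at 42.1%. Their proline codons made up 12.3%, 5.01% and 6.52%, in that order. The pairing of direction with proline and GC was seen after the values were known and is a description.

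In the Sm ring, Snrpe, which encodes SmE, rose 2.38-fold, the largest rise among the members. It was at 14.5, 8.88 and 9.97 CPM in WT fear and at 21.9, 33.5, 21.1 and 13.4 CPM in KO fear. The lowest KO fear library lay below the highest WT fear library, and the log2 difference was 1.25 ± 0.29 (adjusted p = 0.0162 by edgeR). In home cage mice the gene was at 9.92 to 16.4 CPM in WT and 11.9 to 21.9 CPM in KO, and in whole hippocampus at 9.88 and 10.7 CPM in WT, 12.2 and 10.1 in Het and 11.1 and 10.6 in KO. Snrpg, which sits beside SmE in the ring, was at 4.71, 3.40 and 3.03 CPM in WT fear and 5.47, 8.07, 6.24 and 5.08 CPM in KO fear, without overlap (rise of 0.91 ± 0.27, adjusted p = 0.0289 by edgeR). Both genes have processed copies elsewhere in the genome, and their counts are uncertain to that extent.

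The SmB pair was not called. Snrpb was at 66.5, 54.9 and 65.9 CPM in WT fear and 63.5, 88.0, 84.8 and 79.7 CPM in KO fear (0.24 ± 0.13, adjusted p = 0.195 by edgeR). Snrpn was at 2.45, 3.84 and 2.78 CPM in WT fear and 2.05, 1.93, 3.39 and 3.91 CPM in KO fear (-0.47 ± 0.26, adjusted p = 0.195 by edgeR). Within KO fear, Snrpn was lower in both B1 libraries than in both B3 libraries. Snrpa1, the U2 protein A' and also named after its values were seen, rose by 0.58 ± 0.20 (adjusted p = 0.0452 by edgeR).

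Of the hnRNP proteins, Hnrnpd, also known as AUF1 for its binding to AU-rich elements, fell. It was at 211, 223 and 215 CPM in WT fear and 149.5, 127, 165 and 164 CPM in KO fear, with no overlap (-0.55 ± 0.12, 1.47-fold lower, adjusted p = 0.0155 by edgeR). Hnrnpul2, a relative of the scaffold protein hnRNP U, was at 421, 438 and 466 CPM in WT fear and 298, 289.6, 312 and 332 CPM in KO fear, also without overlap (-0.52 ± 0.12, adjusted p = 0.0155 by edgeR). KO home libraries of Hnrnpul2 ranged from 322 to 426 CPM and WT home libraries from 339.7 to 437 CPM, so 3 of the 4 KO fear libraries lay below every home cage library.

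Hnrnpa0 was at 157, 156 and 157 CPM in WT fear. KO fear libraries split by batch, with 101 and 124 CPM in B1 and 175 and 161 CPM in B3, and the fall of 0.41 ± 0.12 (adjusted p = 0.0249 by edgeR) has KO libraries on both sides of WT fear. Hnrnpc, which packages uridine-rich stretches of nascent transcripts, rose by 0.52 ± 0.13 (adjusted p = 0.0188 by edgeR), from 254, 197 and 200.2 CPM to 297, 328, 256 and 211 CPM, with overlap. X-linked Hnrnph2 was at 134, 131 and 125 CPM in WT fear and 124, 98.6, 119 and 113 CPM in KO fear. Its groups did not overlap, but the difference of -0.16 ± 0.10 did not pass (adjusted p = 0.253 by edgeR).

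Prpf8, the large protein at the catalytic centre of the spliceosome, fell by 0.60 ± 0.18 (adjusted p = 0.0286 by edgeR). It was at 232, 289.8 and 302 CPM in WT fear and at 189, 155, 208 and 249 CPM in KO fear, so 1 KO fear library exceeded the lowest WT fear library. Prpf38a, a protein of the complex before activation, rose by 0.64 ± 0.19 (adjusted p = 0.0285 by edgeR), from 33.3, 24.6 and 23.6 CPM to 37.0, 49.3, 32.1 and 26.7 CPM, with overlap. Srsf3, the smallest SR protein, was at 136, 96.5 and 116 CPM in WT fear and 152, 179, 121 and 107 CPM in KO fear, with overlap (rise of 0.48 ± 0.16, adjusted p = 0.0418 by edgeR). Srsf5 was at 141, 128 and 133 CPM in WT fear and 149, 163, 136 and 151 CPM in KO fear and was not called.

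**Figure D3:**
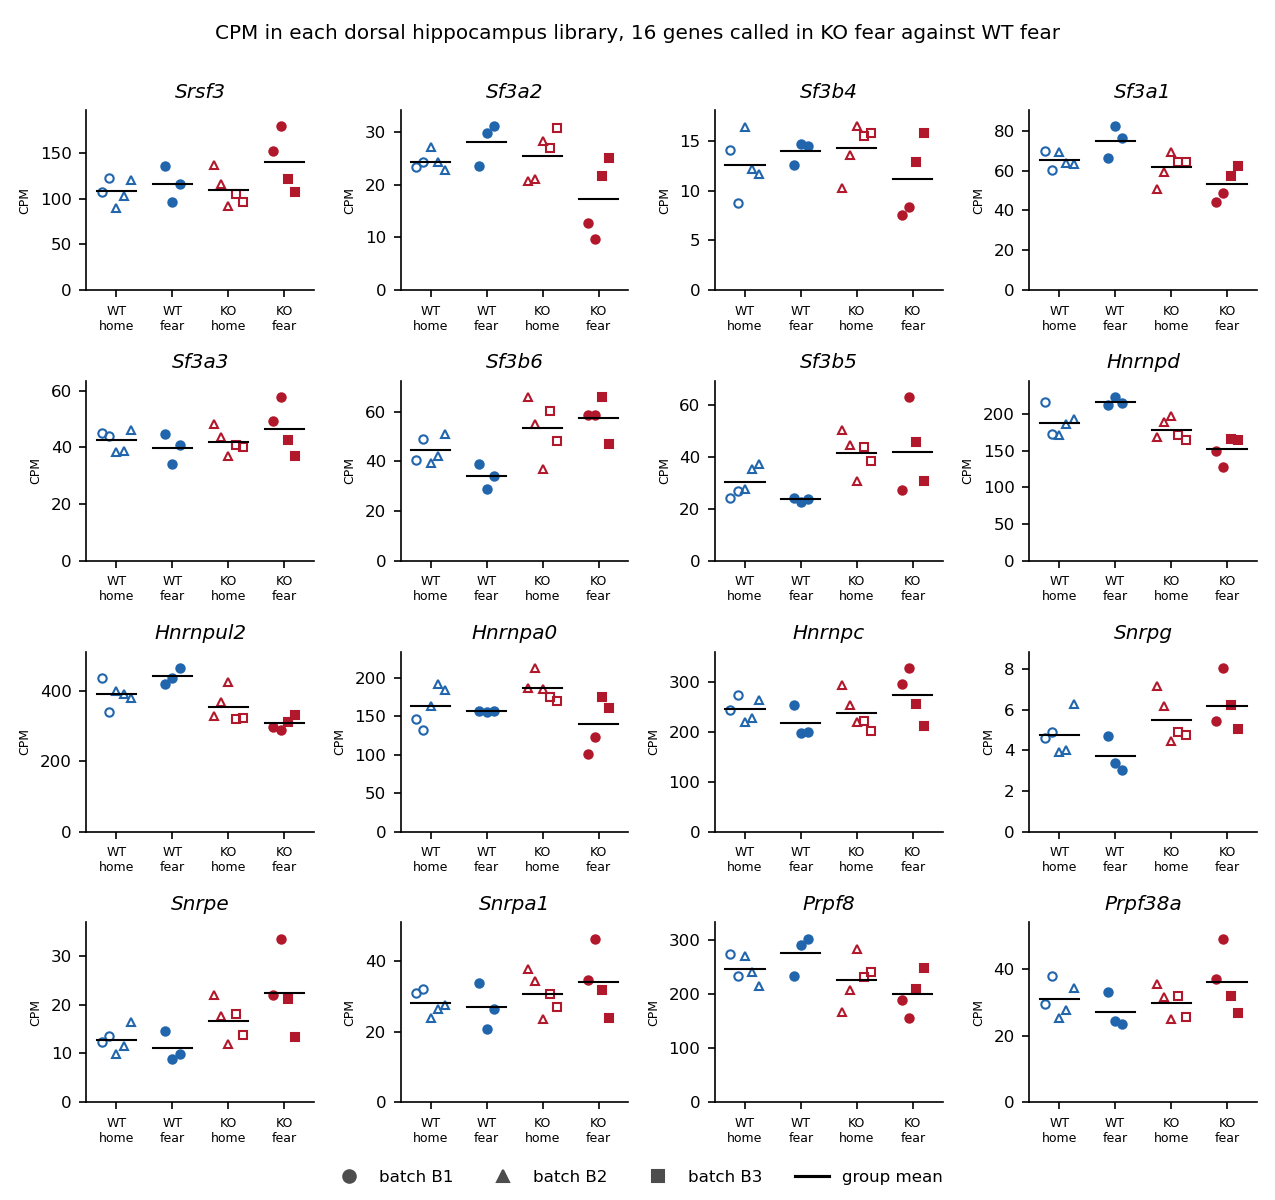
CPM in each dorsal library for the 16 called members by group, with circles for batch B1, triangles for B2, squares for B3, colour for genotype, filled symbols for fear and a line at each group mean. In Sf3a2 and Hnrnpa0 the B1 libraries of KO fear (12.7 and 9.63 CPM, and 101 and 124 CPM) lie below its B3 libraries (21.6 and 25.1 CPM, and 175 and 161 CPM).

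These calls depended on few libraries. Without the 2 KO fear libraries of B1, 0 members and 0.00657% of all genes were called. All WT fear libraries are in B1, so no batch of that fit holds both fear groups. It compares them only through the home cage groups, so its lost calls cannot be assigned to the values of those 2 libraries. Leaving out WT fear 2, WT fear 3 or KO fear 2 alone also left 0 members called. Those fits called 2 of 15118, 1 of 15124 and 1 of 14896 genes. Within B1 alone, 13 of the 16 were called, 6 higher and 7 lower, with 17.6% of all genes. DESeq2 called 20 members including all 16 (27.9% of all genes), limma-voom 12 of the 16 (18.2%), and the fit without a batch term 8 members, 6 of the 16 among them (10.4%). With the replicate number as a block no member was called (0.00675% of all genes). Each of the 16 kept its sign in all of these fits. For Sf3a2 the difference was -1.35 within B1, -0.67 without the batch term and -0.64 without the 2 libraries (adjusted p = 0.699 by edgeR). For Sf3b6 it was 0.78, 0.76 and 0.71 in the same fits, but 0.36 with the offset described below.

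**Figure D4:**
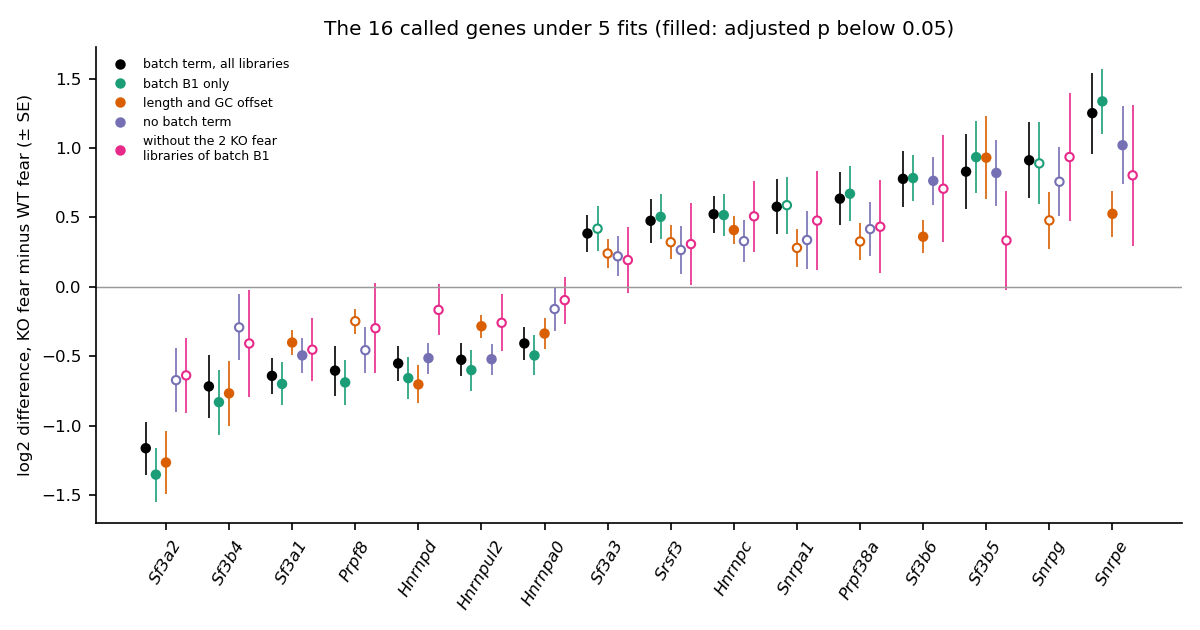
Log2 difference KO fear minus WT fear of the 16 called members under 5 fits, with bars of 1 SE and a filled marker where the adjusted p was below 0.05. All values of a gene stay on 1 side of 0, and no marker is filled without the 2 KO fear libraries of B1.

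Transcript length went with the direction of these differences. Length classes were set so that the 13913 other protein-coding genes with a transcript length fell into 3 classes of about equal size. The short class, up to 2121 bases, holds 29 members, whose median difference was 0.29 and of which 6 rose and 3 fell. The long class, above 3585 bases, holds 12 members, whose median was -0.03 and of which 1 rose and 3 fell. Other protein-coding genes showed medians of 0.32 and -0.23 in the same classes, with 1091 higher and 116 lower calls among the short and 98 higher and 1113 lower among the long. The Spearman correlation of the difference with length was -0.447 over the 67 members and -0.515 over 13913 other genes, which all share the same libraries. The Sm genes are the shortest role, with a median transcript of 1108 bases, and the SF3 genes the longest, with 3222 bases. Per library, the median level of short minus long genes, relative to the mean of all dorsal libraries on the log2 scale, was -0.17, -0.43 and -0.46 in WT fear and 0.05, 0.34, 0.21 and -0.03 in KO fear.

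A fit with an offset for length and GC content called 15 members, 10 of them among the 16, and 14.3% of all genes. In it Sf3a2 differed by -1.26 (adjusted p = 0.0167 by edgeR), Sf3b5 by 0.93, Hnrnpd by -0.70 and Snrpe by 0.53 (adjusted p = 0.0426 by edgeR), down from 1.25. Smaller in size than before were also Sf3b6 at 0.36 (adjusted p = 0.0487 by edgeR), Sf3a1 at -0.40 and Hnrnpul2 at -0.28. The calls of Snrpg (0.48, adjusted p = 0.117), Prpf8 (-0.25, adjusted p = 0.0754), Srsf3 (0.32, adjusted p = 0.0863), Prpf38a (0.33, adjusted p = 0.0938), Snrpa1 and Sf3a3 were lost by edgeR in that fit. The members' median turned from 0.05 to -0.05.

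**Figure D5:**
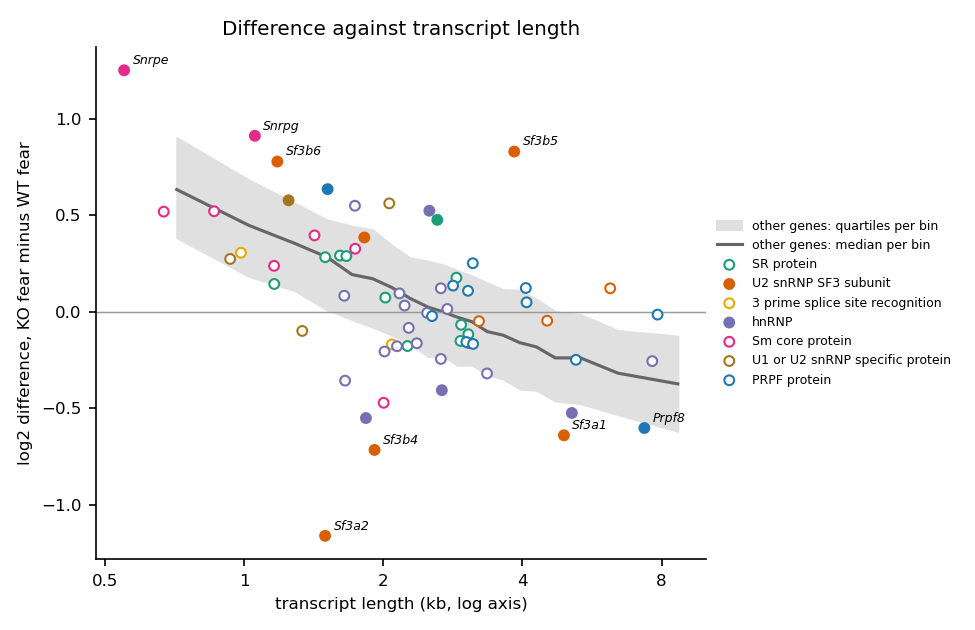
Log2 difference KO fear minus WT fear against transcript length (kb, log axis) for 66 of the 67 members by role, filled where called, over the median (line) and quartiles (band) of other protein-coding genes in bins of length. Short genes lie mostly above 0, in the members (median 0.29 of the short class) as in other genes (0.32). Long genes lie mostly below 0 among the other genes (median -0.23), while the long members lie around 0 (median -0.03).

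Markers of some other cell types also differed between the fear groups. Of all genes, 22.3% were called in this comparison, 10.2% higher and 12.1% lower. Of 10 ependyma markers, 9 were called higher in KO fear (median 3.41), with summed levels of 9.22 to 10.9 CPM in WT fear and 32.5 to 88.3 CPM in KO fear, against 45.6 to 123 CPM in WT home. Of 15 oligodendrocyte markers, 9 were called higher (median 0.87), with sums of 4137 to 5541 CPM in WT fear, 6993 to 10926 CPM in KO fear and 7127 to 14242 CPM in WT home. Of 10 choroid plexus markers, 6 were called higher (median 2.05), with sums of 53.9 to 151 CPM and 106 to 529 CPM. Of 12 markers of hippocampal fields, 4 were called higher and 4 lower (median -0.28), with sums of 1492 to 1754 CPM in WT fear and 1301 to 1746 CPM in KO fear. Of 11 thalamus and neocortex markers 1 was called higher and 2 lower. The marker Gbx2 was at 0 in every WT fear library, all from the shallowest batch, and also in every whole KO library. Astrocyte markers had 3 higher calls of 10, neuron markers 1 higher and 2 lower of 10 (median -0.14), and microglia markers 1 higher of 10 and endothelium and mural cell markers 1 higher of 11. The shares called, 30% for astrocyte and for neuron markers, were near that of all genes. Those of microglia (10%) and of endothelium and mural cells (9.09%) were below it. The part of these cell types and regions in the splicing factor differences was not tested.

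No member passed edgeR's test of the interaction, which asks whether fear conditioning moved a gene differently in KO and in WT, and 0.479% of all genes did. At an unadjusted p below 0.05 there were 6 higher and 6 lower members, where 21.9% of all genes reached that p. Sf3a2 came closest at -0.92 ± 0.21 (adjusted p = 0.0521 by edgeR), followed by Hnrnpa0 (-0.43 ± 0.13) and Hnrnpd (-0.45 ± 0.14). Hnrnpc (0.41 ± 0.16) and Srsf5 (0.31 ± 0.12) were among the 3 with the smallest p in the other direction. Sf3a2 passed by DESeq2 (-0.94, adjusted p = 0.00301), which called 4 members and 6.13% of all genes. It also passed by edgeR without WT home 1, WT fear 1, KO home 1 or KO home 3 (adjusted p 0.0115 to 0.0462). Those edgeR fits called 664 of 14917, 1007 of 15131, 894 of 14743 and 102 of 14776 genes, in that order. By limma-voom 0 members were called. A call in KO fear against WT fear is therefore not a call that the response to conditioning differed.

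Genes that act beside the members were counted in fixed lists for the same KO fear against WT fear comparison, in which 10.2% of all genes were called higher and 12.1% lower. Without the 2 KO fear libraries of B1, 0.00657% of all genes were called. In that fit no batch holds both fear groups, so lost list calls cannot be assigned to the values of those 2 libraries. Of 27 neuronal and tissue splicing regulators, 0 rose and 11 fell (median -0.29), among them Srrm4 (-0.92), the neural microexon factor, Nova2 (-0.74), Rbfox2 (-0.49) and Elavl3 (-0.48). Of 13 minor spliceosome genes, 5 rose and 0 fell (median 0.28), Snrnp25 (0.83), Zcrb1 (0.80), Snrnp48 (0.64) and Scnm1 (0.57) among them. Other snRNP proteins had 6 rises and 1 fall of 23, with Phf5a (0.80), Lsm3 (0.77) and Txnl4a (0.45) up and the branch-point protein Sf1 (-0.69) down. Genes of helicases and of the Prpf19 complex had 3 rises and 4 falls of 33, SR protein kinases and coactivators 2 and 3 of 21 with Clk4 (0.60) up and Dyrk1a (-0.47) down, and the exon junction complex 1 and 1 of 11, Magoh (0.73) and Casc3 (-0.52). Transcript length was not set against these lists, and the part of length and of the cell types above in their values was not tested. Of 11 temperature-responsive genes, 1 rose, Hspa8 (0.37), and 0 fell, and none of 9 nuclear-retained RNAs was called. In the other comparisons the lists held 3 calls by edgeR: Zrsr1 of the minor spliceosome was lower in whole KO than Het (-0.46), and the nuclear-retained Neat1 was lower (-1.20) and the temperature-responsive Dnajb1 higher (0.52) in WT fear than WT home.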

How the data were processed

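Polyadenylated RNA of 6 whole and 17 dorsal hippocampus libraries was sequenced from snap-frozen brains with an unstranded kit, per the labels' protocols. The authors deposited raw counts per gene symbol, 24985 symbols a table; the build mm10, STAR, HTSeq 0.9.1, SAMtools 1.1, limma and DESeq2 are listed without roles, per the submitters' processing notes. Among dorsal symbols, 26 had become dates, none of them a member.

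Counts were tested as deposited with edgeR 4.0.16 (R 4.3.3): filterByExpr (minimum count 10, minimum total 15), TMM scaling and the quasi-likelihood F test, by group in whole hippocampus (3 residual degrees of freedom) and by group plus batch in dorsal hippocampus (11), with Benjamini-Hochberg adjustment over all genes. The SE is the log2 difference divided by the square root of F. The code was tested on simulated data. Alternatives were DESeq2 1.42.0, limma-voom (3.58.1), RLE factors, no filter, no batch term, single batches, 2 genotypes only, a replicate block, each library left out, and others added after seeing the data. Positions, lengths and GC come from GENCODE M21 (mm10).

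Each library counted as 1 replicate, since the chi-square per gene between libraries of a group, 6.11 to 62.3, was above sampling noise. Members and lists were chosen with earlier results of these data known. Values in every library were given for up to 14 members called anywhere, with Snrpb, Snrpn and Hnrnph2; otherwise the 3 members with the smallest p per direction and comparison, the highest and lowest per role, and up to 4 called genes per list were named. A gene that this rule names is not reported here by name; it stays in the counts and fits.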

Additional observations from a re-analysis of the deposited data

How the results depend on the processing

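Depth limits the dorsal comparisons most in batch B1, and counting error is only a part of the spread there. Of the results that answer a comparison, 319 values under an alternative kept within the bounds set for them and 23 did not; of those for named members, 1112 kept direction and side of the threshold, 101 lost the call, 18 gained one and 3 reversed. Members called in KO fear against WT fear, 16 by edgeR, numbered 0 with the replicate block, 8 with no batch term, 0 without the 2 KO fear libraries of B1 and 0 to 22 with each library left out. Their median of 0.0488 became -0.0529 with the length and GC offset and -0.0622 with no batch term (-0.0040 to 0.0779 with each library left out). In WT fear against WT home DESeq2 called 1 member (938 of 14806 genes), and leaving out each library gave 0 to 2. For the interaction DESeq2 called 4 members (907 of 14806 genes), RLE factors 1 (130 of 14808) and no filter 1 (400 of 19822). Leaving out each library gave 0 to 4 there. Leaving out each whole library gave 0 to 2 members in Het against WT and 0 to 1 in KO against Het. Reversed were Hnrnpa0 in WT fear against WT home with no batch term (-0.065), and Prpf4b (0.047) and Sf3b1 (0.034) in KO home against WT home with the offset; the cause was not tested. Whether replicate numbers pair the libraries was not settled. Deviations from group means, with batch left in, correlated above 0.1 in 9 of 22 dorsal and 2 of 6 whole pairs of the same number. Pairs of different number were not set beside them, and the 2 libraries of a whole group mirror each other, so these values cannot decide it. With the replicate block no member was called in any comparison. The offset, the fit without the 2 KO fear libraries and a whole fit with crossed numbers (0 members called) were chosen after seeing the data. Other scalings moved the median of all genes by at most 0.018.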
